A study of Homo sapiens with 6 samples.

Results

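The pyruvate dehydrogenase complex and the enzymes that switch it off and on were followed in IOMM-Lee cells, an established cell line that grew out of a grade 3 (malignant) meningioma, a tumour that arises in the coverings of the brain. The 10 genes were taken by symbol: the kinases PDK1, PDK2, PDK3 and PDK4, the phosphatases PDP1 and PDP2, and the complex genes PDHA1, PDHB, DLAT and PDHX. All 10 were found among the 61859 genes of the count table, and all 10 were among the 16411 genes with enough counts to be tested. Hypoxia cells were kept for 48 h in a workstation at 0.2% oxygen, and normoxia cells are labelled with the same time, with 3 libraries in each group. The labels give both groups the same line, serum-containing medium, temperature and carbon dioxide, so every value describes 1 cell line. The submitters call the libraries biological replicates. No source used here says whether they came from separate cultures. The p-values therefore set the difference between groups against the spread between these libraries only.

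The pyruvate dehydrogenase complex sits in the mitochondrial matrix and turns pyruvate, the end product of glycolysis, into acetyl-CoA for the citric acid cycle. Its E1 enzyme, built from PDHA1 and PDHB, removes carbon dioxide from pyruvate, DLAT (E2) passes the acetyl group to coenzyme A, and PDHX holds the E3 enzyme DLD on the E2 core. The PDK kinases phosphorylate serines of PDHA1 and so inactivate the complex, and the PDP phosphatases remove these phosphates. PDK1 is widely known as a target of hypoxia-inducible factors, which bind short elements whose core reads ACGTG or GCGTG.

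RNA was sequenced from whole cultures, so fewer cells with a transcript and less of it per cell cannot be told apart. Libraries held 10980973, 10619864 and 18447885 counts in hypoxia, against 19554178, 14685317 and 16049763 counts in normoxia. Levels are CPM, counts relative to the library total after scaling by TMM, a method that sets the bulk of genes equal between libraries. A floor of 3 counts equals 0.133 to 0.316 CPM and covers counting error only. Each change is the log2 of hypoxia over normoxia with its standard error (SE), tested with edgeR's quasi-likelihood F test and adjusted by Benjamini-Hochberg over all tested genes, and a gene counts as called at an adjusted p under 0.05. The response was broad: 62.2% of the tested genes were called, 31.2% higher and 31.0% lower. The hypoxia markers CA9 (929 ± 32.0 against 70.7 ± 14.9 CPM) and NDRG1 (9798 ± 943 against 112 ± 12.95 CPM; SD, n = 3 each) were higher in the libraries labelled hypoxia. Mitochondrially encoded genes took 2.05% to 3.05% of counts in hypoxia and 6.42% to 7.29% in normoxia, and the part of this in the results was not tested. Of 8 meningioma markers 5 had enough counts to be tested, with summed levels of 6107 to 7686 CPM in hypoxia and 2701 to 3560 CPM in normoxia, whereas PGR, PTGDS and CDH1 had few counts. The sum is nearly all VIM, a filament gene that many cell types express, at 6149 ± 930 CPM in hypoxia and 3052 ± 429 CPM in normoxia. SSTR2 went the other way and was called lower (log2 change -1.56, adjusted p = 0.0304 by edgeR) on 2, 5 and 3 counts in hypoxia and 26, 12 and 11 in normoxia, a call lost under 6 alternative settings. Summed leukocyte markers (0 of 5 tested) lay at 0.783 to 1.43 CPM in hypoxia and 0.368 to 0.817 CPM in normoxia. Endothelial markers (2 of 4 tested) summed to 1.69 to 4.94 CPM in hypoxia and 3.24 to 4.14 CPM in normoxia, and glial and neural markers (4 of 4 tested, 2 called lower) to 11.3 to 13.7 CPM in hypoxia and 17.0 to 22.2 CPM in normoxia. Of 3 keratinocyte markers 0 were tested, and KRT14 and KRT1 were at 0.

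Because hypoxia-inducible factors act through such short elements, the 250 bases before each start were searched for ACGTG and GCGTG on both strands. Start windows from RefSeq on GRCh38.p14 were used for 9 of the 10 genes, 13 windows in all, and PDP1 was left out of the search. Of these, 8 windows from 8 genes held a match, and PDK4 held none. Among all 35116 windows of the table, 43.2% held either motif, 18.5% held ACGTG and 32.2% held GCGTG. Counted by gene, ACGTG was present for 7 of the 9 genes and GCGTG for 6. A gene counts if any of its windows held the motif, and PDK1, PDK2 and PDHX have several windows. These counts by gene therefore cannot be compared with the shares of windows. The figure to set beside 43.2% is 8 of 13 windows, and the difference was not tested. Where C precedes ACGTG, the motif matches on both strands at overlapping positions, as before PDK2, PDP2 and PDHB, and PDHA1 held GCGTG alone. The 30 bases around the ACGTG match nearest the start are shown for genes that were higher in hypoxia (PDK1, PDK3, PDHX) and lower in hypoxia (DLAT, PDHB), since both kinds hold the same letters. They are written 5′ to 3′ on the strand of the gene, with matches on either strand in capitals.
PDK1 (chr2:172556069-172556098, + strand): ccgcCACGTccctCACGTaccactcggcag
PDK3 (chrX:24465212-24465241, + strand): tcgcgcgccgcgtACGTGcagcaaccgact
PDHX (chr11:34916483-34916512, + strand): ggaggcaaggccaACGTGgttggaggcggg
DLAT (chr11:112025360-112025389, + strand): ccattttacgacaACGTGcggctgtgcggt
PDHB (chr3:58433848-58433877, − strand): ggcggggcctgctCACGTctgccggcccct
PDK1 holds a pair of matches, both on the strand opposite the gene, whose first bases lie 17 and 8 bases before the RefSeq start at 172556090. The window before the other PDK1 start, at 172555373, which is also where the GENCODE gene begins, held no match, so the site shown lies inside the gene span printed for PDK1. Of the PDHX windows, that before the start at 34916618 held the match shown and that before 34916438 held none. A match describes letters only and shows no binding.

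The kinases did not move together. PDK1 and PDK3 were higher in hypoxia, PDK4 was lower, and PDK2 was not called except under scaling by library totals. PDK1 (ENSG00000152256, chromosome 2, 172555373 to 172608669, plus strand, GRCh38 with GENCODE 29 as for all gene positions) had 262, 310 and 304 CPM in hypoxia, against 51.4, 51.2 and 52.1 CPM in normoxia. Every hypoxia library was far above every normoxia library, and the normoxia libraries lay close together. The means were 292 ± 25.9 and 51.5 ± 0.476 CPM (SD, n = 3 each), a 5.67-fold rise (log2 change 2.50 ± 0.10 SE, adjusted p = 2.17e-08 by edgeR).

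PDK3, a kinase encoded on the X chromosome (ENSG00000067992, 24465221 to 24541862, plus strand), had 51.5, 52.3 and 49.7 CPM in hypoxia, against 15, 16.0 and 16.3 CPM in normoxia. The groups did not overlap. Its rise was 3.25-fold (log2 change 1.70 ± 0.11 SE, adjusted p = 4.42e-07 by edgeR). PDK4, the kinase known for its induction in fasting muscle and liver (ENSG00000004799, chromosome 7, 95583499 to 95596491, minus strand), had 1.16, 0.917 and 1.38 CPM in hypoxia, against 3.77, 5.51 and 6.83 CPM in normoxia. These rest on 11, 9 and 23 counts in hypoxia and 85, 90 and 117 counts in normoxia. PDK4 was the scarcest of the 10 in both groups and fell further in hypoxia, by 2.18 on the log2 scale (SE 0.32, adjusted p = 0.000177 by edgeR).

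PDK2, a broadly expressed kinase (ENSG00000005882, chromosome 17, 50094737 to 50112152, plus strand), had 17.5, 12.8 and 16.5 CPM in hypoxia, against 19.2, 18.4 and 18.7 CPM in normoxia. All hypoxia libraries were below all normoxia libraries, and hypoxia replicate 2 was the lowest. The log2 change of -0.26 ± 0.15 SE did not pass the test (adjusted p = 0.142 by edgeR). With scaling by library totals alone it was -0.58 (adjusted p = 0.00494), and without hypoxia replicate 2 it was -0.16 (adjusted p = 0.369).

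**Figure D1:**
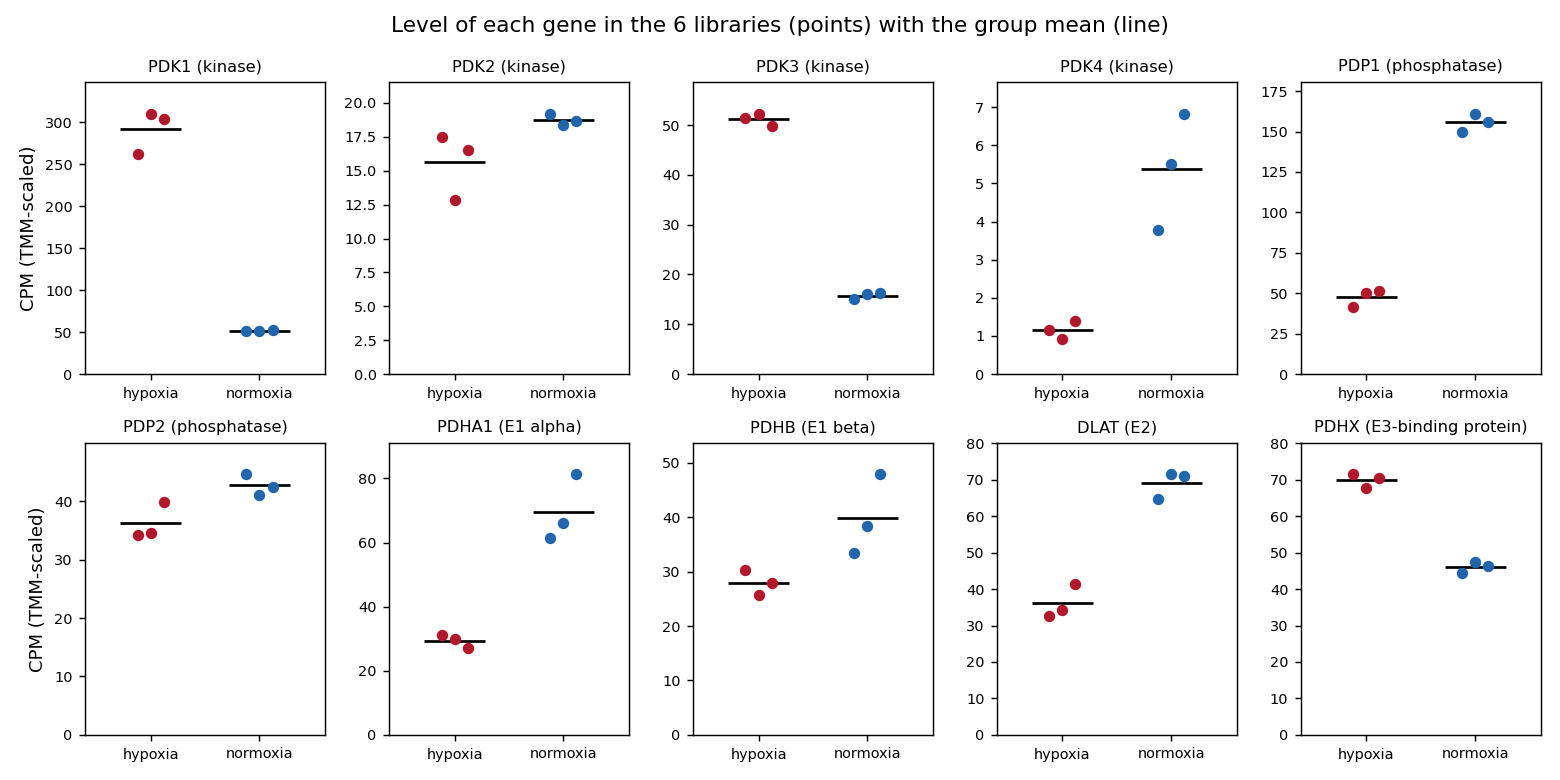
CPM of each of the 10 genes in each library on linear axes that start at 0, hypoxia libraries left of normoxia libraries, with points for libraries and lines for group means. The points of the groups do not overlap for any of the 10 genes; PDK1 stands at 262 to 310 CPM in hypoxia and 51.2 to 52.1 CPM in normoxia.

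Both phosphatase genes had lower levels in hypoxia, but under TMM scaling PDP1 alone passed the test, and under library totals both did. PDP1, the calcium-stimulated phosphatase (ENSG00000164951, chromosome 8, 93857807 to 93926066, plus strand), had 41.3, 50.05 and 51.3 CPM in hypoxia, against 150, 161 and 156 CPM in normoxia. It fell by 1.71 on the log2 scale (SE 0.11, adjusted p = 3.76e-07 by edgeR). PDP2 (ENSG00000172840, chromosome 16, 66878589 to 66895754, plus strand) had 34.3, 34.6 and 39.8 CPM in hypoxia, against 44.6, 41.1 and 42.4 CPM in normoxia. The groups lay close, with a log2 change of -0.24 ± 0.11 SE (adjusted p = 0.0808 by edgeR). PDP2 was called lower under 4 of 15 alternative settings, among them leaving out hypoxia replicate 3 (-0.34, adjusted p = 0.00849).

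Among the genes of the complex itself, PDHA1, PDHB and DLAT were lower in hypoxia and PDHX was higher. PDHA1, the E1 alpha subunit that carries the phosphorylated serines (ENSG00000131828, chromosome X, 19343893 to 19361705, plus strand), had 31.1, 29.97 and 27.1 CPM in hypoxia, against 61.4, 66.2 and 81.3 CPM in normoxia. It fell by 1.25 on the log2 scale (SE 0.13, adjusted p = 1.22e-05 by edgeR). Its partner PDHB, the E1 beta subunit (ENSG00000168291, chromosome 3, 58427630 to 58433857, minus strand), had 30.3, 25.7 and 27.9 CPM in hypoxia, against 33.4, 38.4 and 47.9 CPM in normoxia. The nearest libraries were only a little apart, and normoxia replicate 3 was the highest. PDHB fell by 0.51 (log2, SE 0.15, adjusted p = 0.0103 by edgeR). Its call came near the threshold without normoxia replicate 3 (a fall of 0.38, adjusted p = 0.0449 by edgeR). Without hypoxia replicate 2 the fall was 0.47 (adjusted p = 0.0379 by edgeR).

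DLAT, the E2 transferase (ENSG00000150768, chromosome 11, 112024814 to 112064390, plus strand), had 32.6, 34.3 and 41.4 CPM in hypoxia, against 64.8, 71.5 and 71.0 CPM in normoxia. It fell by 0.93 (log2; SE 0.12, adjusted p = 5.16e-05 by edgeR). PDHX, the E3-binding protein (ENSG00000110435, chromosome 11, 34915829 to 35020591, plus strand), went the other way, with 71.5, 67.8 and 70.4 CPM in hypoxia, against 44.3, 47.5 and 46.4 CPM in normoxia. Its 1.52-fold rise was a log2 change of 0.60 ± 0.09 SE (adjusted p = 0.000241 by edgeR). With scaling by library totals, which moves the median of all tested genes to -0.30 (log2), the change of PDHX was 0.29 and still called.

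**Figure D2:**
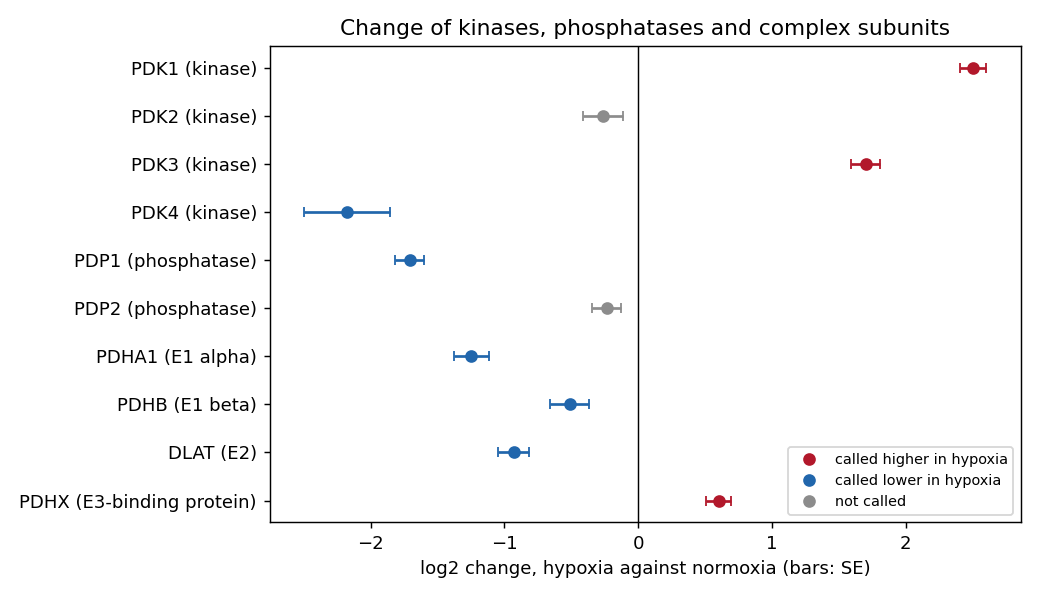
Log2 change of hypoxia over normoxia with SE bars for the 10 genes, grouped as kinases, phosphatases and complex genes, with called and not called genes marked. PDK1, PDK3 and PDHX lie above 0, and PDK4, PDP1, PDHA1, PDHB and DLAT below it.

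In all, 3 of the 10 genes were called higher, 5 lower and 2 were not called, beside 62.2% of all tested genes called. Their median log2 change was -0.39, against 0.01 for all tested genes. The groups did not overlap for any of the 10, and for 67.9% of all tested genes. The 8 called genes kept direction and call under each of 15 alternative settings at the 0.05 threshold. With the threshold at 0.01, 7 were called, and PDHB was lost.

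**Figure D3:**
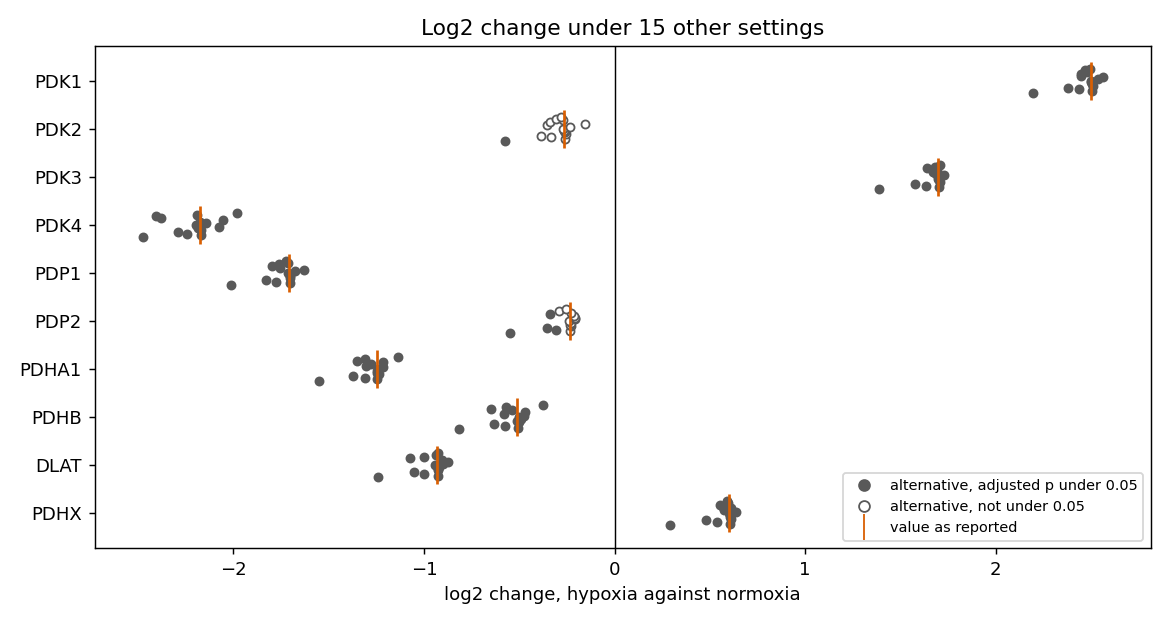
Log2 change of hypoxia over normoxia for each of the 10 genes under the reported settings and 15 alternatives. PDK1 ranged from 2.20 to 2.56 and PDP1 from -2.02 to -1.63, while PDK2 (-0.58 to -0.16) and PDP2 (-0.55 to -0.21) were not called under the reported settings.

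Levels of different genes were compared per kilobase of exon (CPM per kb). In hypoxia PDK1 (19.6 CPM per kb) and PDHX (18.6) came first, with ranges that overlapped, then PDK3 (10.3). PDP1 (8.49), DLAT (7.47), PDHA1 (6.54) and PDHB (5.93) followed, each overlapping its neighbour in that order, then PDP2 (4.33), PDK2 (2.85) and PDK4 (0.255). In normoxia PDP1 came first (27.8 CPM per kb), followed by PDHA1 (15.5) and DLAT (14.3), which overlapped, PDHX (12.2), PDHB (8.45) and PDP2 (5.11). PDK1 (3.46) and PDK2 (3.42) overlapped, and PDK3 (3.18) and PDK4 (1.19) came last. PDK1 has far more exon sequence (14883 bases) than coding sequence (1368 bases), so its place depends on the length used. With the longest transcript as length, PDHX (26.3) stood above PDK1 (20.6) in hypoxia, and PDHX (17.4) above DLAT (15.5) in normoxia. That length also put PDK2 (5.45) above PDK1 (3.63) in normoxia, with ranges that did not overlap. With coding length PDK1 (213.5) stood far above PDHX (46.5) in hypoxia, and in normoxia PDK1 (37.7) came after PDP1 (92.4) and PDHA1 (54.2).

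The makeup of the kinase pool differed between the groups. PDK1 gave 56.0%, 61.4% and 60.4% of summed kinase CPM per kb in hypoxia, against 31.9%, 30.6% and 29.9% in normoxia. PDK2 gave 8.65 ± 1.64% in hypoxia and 30.4 ± 1.72% in normoxia, and PDK4 gave 0.774 ± 0.159% in hypoxia and 10.5 ± 2.62% in normoxia (SD, n = 3 each). PDK3 gave 31.3 ± 1.65% in hypoxia and 28.3 ± 0.401% in normoxia. The direction for PDK3 turned with coding length, at 15.4% in hypoxia and 18.1% in normoxia. With the longest transcript as length, PDK2 gave the largest share in normoxia, at 39.2%, against 26.1% for PDK1.

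**Figure D4:**
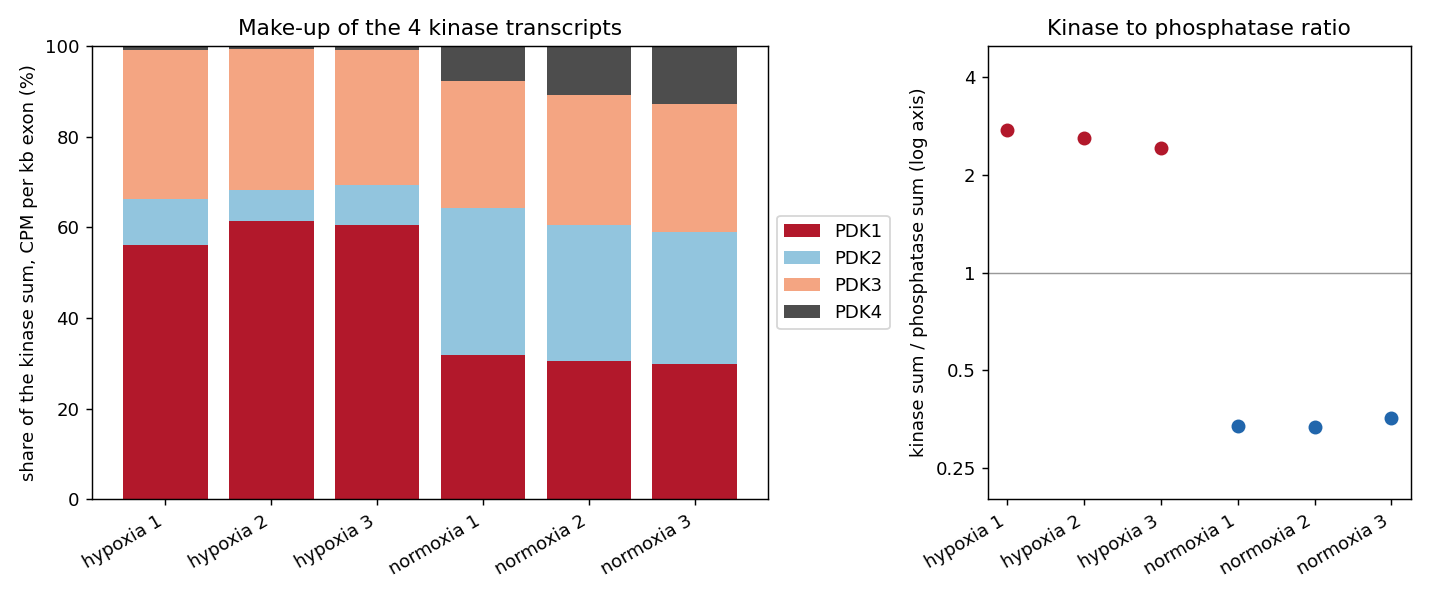
Share of each PDK gene in summed kinase CPM per kb of exon, and, on a log axis, the ratio of summed kinase to summed phosphatase CPM per kb, in each library. PDK1 holds 56.0% to 61.4% in the hypoxia libraries, and the ratio is above 2 in hypoxia and below 1 in normoxia.

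The kinase sum was 33.1 ± 1.38 CPM per kb in hypoxia and 11.3 ± 0.443 in normoxia, and the phosphatase sum was 12.8 ± 1.24 in hypoxia and 32.9 ± 0.783 in normoxia (SD, n = 3 each). The ratio of kinase to phosphatase RNA was 2.74, 2.60 and 2.43 in hypoxia, against 0.337, 0.334 and 0.356 in normoxia. It stood above 1 in every hypoxia library and below 1 in every normoxia library. Its size depends on the length used, and with coding length it was 5.27 in hypoxia and 0.587 in normoxia. The ratio of PDK1 to PDP1 was 2.32 ± 0.0807 in hypoxia and 0.125 ± 0.00476 in normoxia, an 18.6-fold difference that no choice of length alters. These ratios are descriptions of RNA over chosen genes and were given no test.

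The subunits also shifted against each other. PDHA1 to PDHB per kb was 1.11 ± 0.106 in hypoxia and 1.84 ± 0.0778 in normoxia, and PDHX to DLAT was 2.52 ± 0.318 in hypoxia and 0.857 ± 0.0199 in normoxia (SD, n = 3 each). The sum of the 4 complex genes was 38.5 ± 1.124 CPM per kb in hypoxia and 50.5 ± 4.66 in normoxia. Both subunit ratios lay in ranges that did not overlap between the groups.

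Several of these genes share exon sequence with a gene on the opposite strand, and the strand setting of the counting is not given in the sources used here. PDK1-AS1 overlaps 2.99% of PDK1 exon sequence and had 18.0 ± 4.06 CPM in hypoxia and 2.95 ± 0.453 in normoxia (log2 change 2.59, adjusted p = 2.92e-06 by edgeR). The level of PDK1-AS1 was 6.18% of that of PDK1 in hypoxia and 5.72% in normoxia. SAMD14 overlaps 38.6% of PDK2 exon sequence and had 3.75 ± 0.844 CPM in hypoxia and 1.65 ± 0.357 in normoxia (log2 change 1.20, adjusted p = 0.00498 by edgeR), which was 24.0% of the PDK2 level in hypoxia and 8.79% in normoxia. Next to PDHX, whose level was higher in hypoxia, APIP overlaps 6.89% of exon sequence and was lower (13.9 ± 1.85 CPM in hypoxia, 30.01 ± 2.51 in normoxia, log2 change -1.10, adjusted p = 6.1e-05 by edgeR). The APIP level was 19.9% of that of PDHX in hypoxia and 65.2% in normoxia. Without a stated strand setting, it is unknown whether reads from these overlaps were separated by strand.

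Other genes of pyruvate and acetyl-CoA metabolism were read from 8 lists of 48 genes, of which 46 were tested. Together 15 were called higher, 18 lower and 13 not, beside 31.2% of all tested genes called higher and 31.0% lower. The counts of each list below stand beside the same shares. In the rest of the complex, DLD, the E3 enzyme, fell by 1.08 (log2; SE 0.10, adjusted p = 4.47e-06 by edgeR) to 49.1 ± 1.49 CPM in hypoxia, against 104 ± 7.37 CPM in normoxia. PDPR, a regulatory subunit of the phosphatase, had 49.3 ± 1.70 CPM in hypoxia and 42.3 ± 0.754 in normoxia and was not called (adjusted p = 0.0671 by edgeR), though it was with protein-coding genes alone (log2 change 0.25, adjusted p = 0.0337). Its value is uncertain because near-identical copies exist in the genome. PDHA2, the testis form of E1 alpha, had 0 counts in every library.

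The mitochondrial pyruvate carrier, which brings pyruvate to the complex, split between its subunits. MPC1 was lower (11.1 ± 1.65 CPM in hypoxia, 17.4 ± 0.865 in normoxia, log2 change -0.65, adjusted p = 0.00351 by edgeR). MPC2 was higher (39.2 ± 5.48 CPM in hypoxia, 21.9 ± 3.94 in normoxia, log2 change 0.84, adjusted p = 0.000818 by edgeR). Of 5 genes for other fates of pyruvate, 2 were higher and 1 lower. LDHA, which reduces pyruvate to lactate, reached 4900 ± 862 CPM in hypoxia, against 1047 ± 63.4 in normoxia (log2 change 2.23, adjusted p = 4.18e-07 by edgeR). GPT2, the mitochondrial alanine transaminase, reached 156 ± 19.9 CPM in hypoxia, against 36.8 ± 0.9996 in normoxia (log2 change 2.08, adjusted p = 1.42e-07 by edgeR). LDHB was lower (27.1 ± 5.00 CPM in hypoxia, 37.2 ± 4.04 in normoxia, adjusted p = 0.0191 by edgeR), but its adjusted p was 0.0576 without hypoxia replicate 2 and 0.0719 without normoxia replicate 3.

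The thiamine transporter SLC19A2, which brings in the precursor of the cofactor of E1, had 6.60 ± 0.339 CPM in hypoxia and 17.6 ± 0.313 in normoxia (log2 change -1.41, adjusted p = 1.27e-05 by edgeR). Lipoate, the cofactor of DLAT, depends on 9 listed genes, of which 3 were higher, 1 lower and 5 not called. The 3 include NFU1, whose call was lost under 5 of 15 alternatives, among them library totals (adjusted p = 0.296) and leaving out hypoxia replicate 1 (0.111), normoxia replicate 1 (0.121) or normoxia replicate 2 (0.0879). Among those that serve its iron-sulfur cluster step, IBA57 had 20.7 ± 1.93 CPM in hypoxia and 7.75 ± 1.04 in normoxia (log2 change 1.41). GLRX5 had 26.0 ± 4.31 CPM in hypoxia and 55.0 ± 6.86 in normoxia (log2 change -1.09).

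The related 2-oxoacid dehydrogenases gave 2 higher, 5 lower and 2 not called of 9, with a median log2 change of -0.74. OGDH, the first enzyme of the 2-oxoglutarate complex, had 32.2 ± 3.02 CPM in hypoxia and 126 ± 6.66 in normoxia (log2 change -1.96, adjusted p = 1.42e-07 by edgeR). For the branched-chain complex, the E2 gene DBT fell by 1.59 (log2) to 19.0 ± 4.0 CPM in hypoxia, against 56.7 ± 2.87 in normoxia. Its kinase BCKDK was higher (117 ± 14.7 CPM in hypoxia, 59.7 ± 3.93 in normoxia, log2 change 0.97, adjusted p = 2.93e-05 by edgeR). Its phosphatase PPM1K was lower (18.5 ± 3.26 CPM in hypoxia, 40.3 ± 2.01 in normoxia, log2 change -1.13). The 5 lower include BCKDHB, which was not called without normoxia replicate 1 (adjusted p = 0.0653). BCKDHA was called higher on few counts, 19, 35 and 15 in hypoxia and 11, 3 and 0 in normoxia.

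Of 6 genes that use or otherwise supply acetyl-CoA, 1 was higher and 4 lower. The 4 include the citrate synthase gene CS, which was not called without normoxia replicate 2 (adjusted p = 0.0507) or normoxia replicate 3 (0.065). ACAT1, which acts on acetoacetyl-CoA, had 32.7 ± 4.28 CPM in hypoxia and 73.0 ± 5.84 in normoxia (log2 change -1.16). ACLY, which makes cytosolic acetyl-CoA from citrate, had 100.2 ± 6.001 CPM in hypoxia and 201 ± 12.2 in normoxia (log2 change -1.0). The citrate carrier SLC25A1 was called higher (107 ± 34.4 CPM in hypoxia, 64.0 ± 3.96 in normoxia, adjusted p = 0.0192 by edgeR), but its adjusted p was 0.0978 with library totals and 0.0646 without normoxia replicate 2.

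Of 10 factors known to act on PDK genes, 6 were higher and 2 lower. The 6 include PPARA, whose call was lost under 9 of 15 alternatives (adjusted p = 0.541 with library totals, 0.179 without hypoxia replicate 3 and 0.115 to 0.124 without any 1 normoxia replicate), and HIF1A, whose call was lost with library totals (adjusted p = 0.146). EPAS1, the hypoxia-inducible factor 2 alpha subunit, had 237 ± 103 CPM in hypoxia and 18.4 ± 1.29 in normoxia (log2 change 3.69, adjusted p = 5.87e-05 by edgeR). FOXO3, a forkhead factor, had 232 ± 7.71 CPM in hypoxia and 72.6 ± 2.35 in normoxia (log2 change 1.68, adjusted p = 1.09e-07 by edgeR). PPARGC1A, a coactivator of mitochondrial genes, had 0, 0 and 4 counts in hypoxia, against 21, 13 and 13 in normoxia. MYC was called lower (log2 change -0.44, adjusted p = 0.011 by edgeR), but not without hypoxia replicate 2 (adjusted p = 0.0596).

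**Figure D5:**
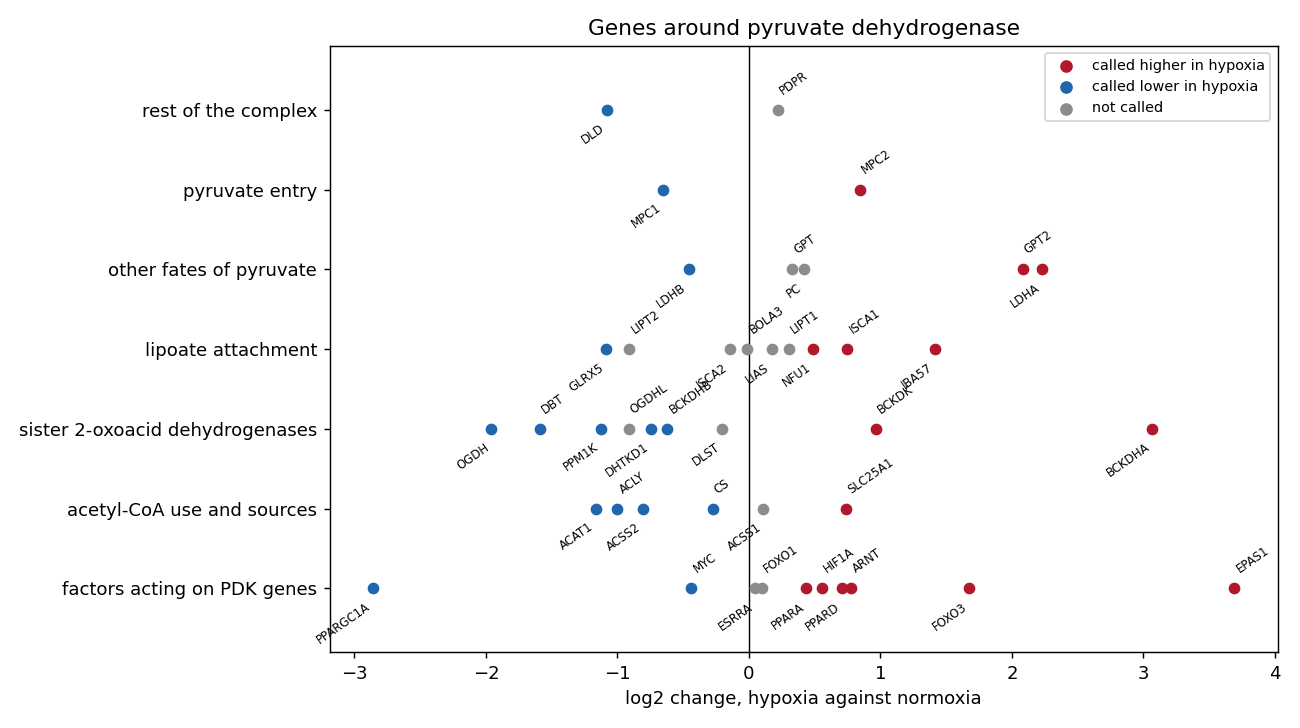
Log2 change of hypoxia over normoxia for listed genes around the complex, by list and without the thiamine list, with called genes marked. LDHA (2.23) and EPAS1 (3.69) lie to the right and OGDH (-1.96) to the left. BCKDHA (3.07) lies further right than LDHA and PPARGC1A (-2.86) further left than OGDH, both on few counts. Lists such as the lipoate genes hold changes in both directions.

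The 3 genes whose pattern over the 6 libraries was most like that of PDK1 were NAB2, BTG1 and DDHD2. Likeness was the root mean square difference of centred log2 CPM among 9339 candidate genes, at 0.0422 for NAB2, 0.0557 for BTG1 and 0.0587 for DDHD2. Their log2 changes were 2.47, 2.50 and 2.47. The measure rests largely on the difference between the groups.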

How the data were processed

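RNA was sequenced from 3 hypoxia and 3 normoxia libraries, grouped by the sample titles. The authors deposited a table of raw counts, with genes named by Ensembl identifier. Per the submitters' processing notes, featureCounts 2.0.1, HISAT2 2.1.0, fastp 0.20.1 and DESeq2 1.37.5 were used with GRCh38.p13. The sources used here do not name the annotation release or the strand setting. A second deposited table, whose cells run together, was not used. The 1 line without a gene (0.00243% of counts) was left out.

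The deposited counts were fitted in R 4.3.3 with edgeR 4.0.16 (TMM; filterByExpr, minimum count 10 and total 15; robust quasi-likelihood F test; Benjamini-Hochberg adjustment). The SE is the log2 change over the square root of F. Exon lengths and positions are from GENCODE 29, and log2 CPM used a prior count of 2. The scripts were tested on simulated data. Replicates within a group differed by more than sampling noise.

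The members and lists were chosen with earlier results of these data known. All 10 members are named; from each list the rule takes up to 3 called genes with the largest change and any that goes the other way, and not all are printed. Other results of the thiamine list are not reported here. Coding length was added as another length after seeing the data. Alternatives were DESeq2 1.42.0, limma-voom (limma 3.58.1), other scalings and filters, protein-coding genes alone, a replicate block, a threshold of 0.01 and leaving out each library.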

Additional observations from a re-analysis of the deposited data

How the results depend on the processing

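The 8 called members kept direction and call under every alternative at the 0.05 threshold. PDK2 was called lower with library totals (-0.58), where the median of all tested genes was -0.30. PDP2 was called lower with library totals (-0.55), upper-quartile scaling (-0.30), no filter (-0.36) and without hypoxia replicate 3; leaving out single libraries gave -0.34 to -0.21 for PDP2. PDPR turned to -0.088 with library totals and was called higher (0.25) with protein-coding genes alone. Why these values moved was not tested. Library totals gave 3421 higher and 6905 lower genes, against 5117 and 5091 with TMM.

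With coding length the PDK1 share of kinase RNA was 79.5% in hypoxia and 53.8% in normoxia, and with the longest transcript 26.1% in normoxia. The kinase to phosphatase ratio was 2.28 in hypoxia with the longest transcript, and 5.27 in hypoxia and 0.587 in normoxia with coding length. These follow from the lengths used.

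The replicate numbers were not taken to pair libraries, since no source used here says that equal numbers mark a shared batch. Deviations of same-numbered libraries from their group means had r = -0.106, 0.0864 and -0.0378. With 3 libraries per group these values are tied to each other and cannot show whether libraries are paired. The replicate block called 9768 genes and 8 members. Of 52 other genes followed through the alternatives, from the lists, the overlapping genes and those most like PDK1, 11 lost their call under some alternative. The 52 include PDPR and DLST, which were not called under the reported settings and had no call to lose. BCKDHA, PPARGC1A, SSTR2 and PDK1-AS1 were tested under 14 alternatives. PDK4, PPARGC1A and BCKDHA rest on few counts, which limits their values, and why the counts are few was not tested.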
